A study of Mus musculus with 6 samples.

Results

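The genes described here are the Wnt ligands, the Frizzled and LRP receptors that bind them, and the secreted or intracellular proteins that tune the signal, measured in cells sorted from the adult mouse olfactory bulb with and without Sox9, a transcription factor of astrocytes. Members were chosen by gene symbol, with earlier results of these data known. They comprised 19 Wnt genes, 10 Frizzled genes, Lrp5 and Lrp6, 6 secreted Wnt-binding inhibitors of the Sfrp and Wif families, 5 Dickkopf genes, 4 R-spondins, 2 Axins and 4 TCF/LEF transcription factors, together 52 of the 24421 genes listed in each library. At least 1 read was counted for 49 of them. Expression was measured by RNA-seq in 6 libraries, 1 per adult male mouse, 3 control and 3 Sox9 KO.

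All 6 mice had received AAV-GFAP-iCre-P2a-TurboRFP in the olfactory bulb, an adeno-associated virus in which the GFAP promoter, active in astrocytes, drives the recombinase iCre and the red fluorescent protein TurboRFP. The KO mice were Sox9fl/fl, in which Cre deletes the floxed part of Sox9, and the controls were C57BL/6J mice (named Sox9+/+ in the methods) with no floxed allele, so that Cre and TurboRFP were present in both groups. At 4 weeks after injection, cells positive for TurboRFP were sorted straight into lysis buffer, so that purity was assessed in the study from cell type markers in the RNA-seq and not by re-sorting, and total RNA was made into libraries. The comparison asks which genes differ in sorted cells once Sox9 has been deleted. Values below are normalized counts, that is reads on a gene divided by the size factor of its library.

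Wnt proteins are lipid-modified secreted signals that bind Frizzled receptors. With the co-receptors Lrp5 or Lrp6 they stop the Axin- and Apc-based complex from degrading beta-catenin, which then acts with TCF/LEF factors on target genes, whereas other ligand and receptor pairs act on the cytoskeleton through planar cell polarity proteins. In the brain, Wnt7a and Wnt7b are known for their action on blood vessels and the blood-brain barrier, and the pathway as a whole for its roles in the neural stem cells that supply the olfactory bulb with new neurons.

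Sox9 itself was listed at 5185, 6562 and 4921 normalized counts in control replicates 1, 2 and 3 and at 52.6, 64.3 and 57.7 in KO replicates 1, 2 and 3. KO over control gave a log2 fold change of −6.54 (SE, its standard error, 0.15, adjusted p = 2.5e-09, limma with Benjamini-Hochberg adjustment). Each library held between 18242129 and 86906527 reads on genes, and 1 read was worth between 0.395 and 1.58 normalized counts. The cells were labelled as astrocytes, and 10 of 10 astrocyte markers were lower in KO, with a sum of 453190 to 503934 normalized counts in control and 31861 to 40648 in KO, a 13.4-fold difference of the means. Of 10 microglia markers, 10 were higher in KO, with sums of 151134 to 177668 in control and 551171 to 670416 in KO (3.91-fold), so that the microglia sum exceeded the astrocyte sum in each KO library and in no control library. The part of this shift in the changes below was not tested. In RNA from sorted cells in bulk, fewer cells of a type and less RNA per cell cannot be told apart. Changes of members with a mean of at least 20 are therefore given on the deposited scale and relative to each library's 10 astrocyte markers. Changes of other genes are in part given on the deposited scale only. The marker scale is an alternative chosen after the data were seen. The markers include Slc1a2, which encodes a glutamate transporter. The paper reports reduced expression of this transporter in its knockout astrocytes. Whether the markers themselves depend on Sox9 was not tested, so the marker scale cannot be read as a neutral correction for astrocyte content.

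Of the 52 members, 45 reached a mean of 1 normalized count over the 6 libraries and were tested. At an adjusted p of 0.05 and 1.5-fold (limma on log2(normalized count + 1), Benjamini-Hochberg adjustment over 18413 genes), 28 members (62.2% of those tested) were lower in KO, beside 28.8% of all genes tested, and 7 (15.6%) were higher, beside 22.2% of all genes. All 3 KO libraries lay below all 3 control libraries for 29 members, a pattern found in 34.7% of all genes tested, and above them for 8, found in 32.4%. The median log2 fold change of the members was −1.50, the range was −8.01 to 3.69, and the median of all genes tested was −0.07. Because a gene that is high in only 1 group can pass the filter through that group, these counts are a description of the members that passed.

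Relative to the astrocyte markers the log2 fold change took the opposite sign for 19 of the 33 members with a mean of at least 20. The median log2 fold change of all genes tested then moved to 3.62, with 0.999% of all genes lower in KO and 83.5% higher. On that scale 4 members were lower (Fzd9, Wnt7b, Wnt9a and Wnt7a) and 27 were higher. These 4 thus dropped further than the astrocyte markers did on average, and they are the only members called lower on both scales.

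**Figure D1:**
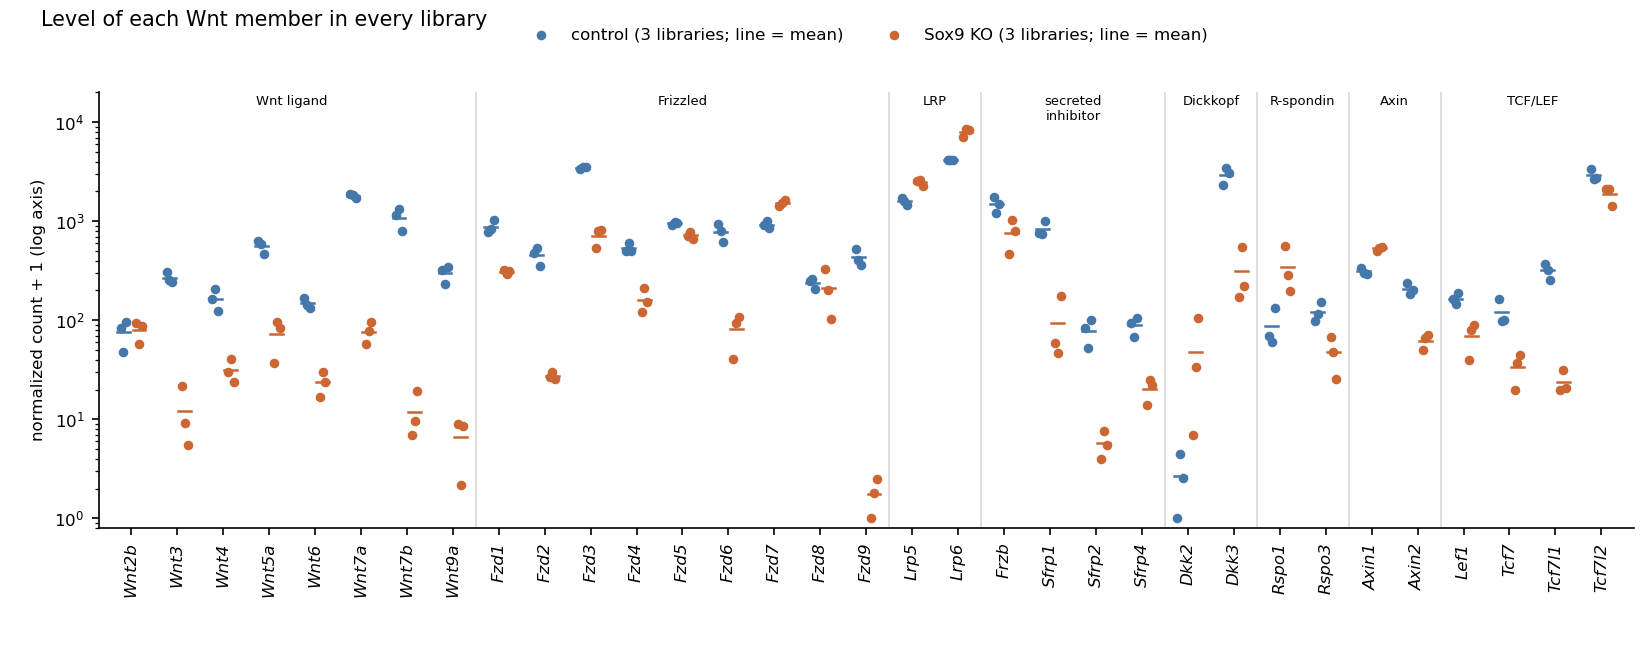
Normalized count + 1 on a log axis for the 33 members with a mean of at least 20, grouped by role. Each point is 1 library and each line a group mean. The KO points lie below the control points for most ligands and Frizzled receptors, with Fzd9 at 0 to 1.5 normalized counts in KO, and above them for Fzd7, Lrp5, Lrp6, Dkk2, Rspo1 and Axin1. These are deposited-scale levels. On the astrocyte-marker scale 27 of the 45 tested members were higher in KO, beside 83.5% of all genes.

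Among the 19 Wnt ligands, 15 were tested. On the deposited scale 9 (60%) were lower in KO, beside 28.8% of all genes tested, and 1 (6.67%) was higher, beside 22.2%. Their median log2 fold change was −2.51. On the astrocyte-marker scale 3 were lower, beside 0.999% of all genes, and 5 were higher, beside 83.5%. Wnt7a, which supports the formation of blood vessels and synapses in the brain, was the ligand with the highest level per kb of exon, 569 normalized counts per kb in control and 23.9 in KO, and its gene lies on chromosome 6 of GRCm38 (91363981 to 91411363, minus strand). Wnt7a was listed at 1866, 1851 and 1698 normalized counts in control replicates 1, 2 and 3 and at 56.6, 76.2 and 94.2 in the KO replicates. The groups stood far apart, and each spread narrowly about its mean. The mean fell from 1805 ± 93.1 (SD, n = 3) to 75.7 ± 18.8 (SD, n = 3), a log2 fold change of −4.59 (SE 0.19, adjusted p = 2.7e-08, limma). On the astrocyte-marker scale Wnt7a was still lower, by a log2 fold change of −0.72 (adjusted p = 0.0027, limma), within the range of the markers themselves.

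Wnt7b, the closest relative of Wnt7a, on chromosome 15 (85535437 to 85582473, minus strand), was listed at 1147, 1321 and 798 normalized counts in the controls and at 6.0, 8.7 and 18.2 in KO, where it rested on 6, 22 and 12 reads. Its ratio of control to KO means was 99.3, beside 23.9 for Wnt7a. The log2 fold change of Wnt7b was −6.61 (SE 0.37, adjusted p = 1.7e-07, limma) and −2.84 relative to the astrocyte markers (adjusted p = 1.2e-05, limma). Exons of Wnt7b overlap those of AU022754 on the opposite strand, and 9 other members (Axin2, Fzd5, Fzd6, Lef1, Rspo3, Sfrp2, Tcf7l1, Wnt11 and Wnt5a) have such a partner. Whether the counting used strand is not stated in these sources, so that reads of overlapping partners cannot be told apart.

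Wnt9a was listed at 321, 230 and 344 normalized counts in control and at 7.9, 1.2 and 7.6 in KO, or 8, 3 and 5 reads. Its log2 fold change was −5.74 (SE 0.53, adjusted p = 6e-06, limma), −5.07 without KO replicate 2, and −2.15 relative to the astrocyte markers (adjusted p = 0.007, limma). Wnt3, an activator of beta-catenin signalling, was listed at 310, 253 and 244 in control and at 20.8, 8.3 and 4.6 in KO. Wnt3 fell by 4.69 on the log2 scale (adjusted p = 9.5e-06, limma), and relative to the astrocyte markers its log2 fold change of −0.94 did not pass (adjusted p = 0.1, limma). For neither ligand did the groups overlap.

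The sequences before the start sites of Wnt7a and Wnt9a are shown because these are ligands called lower on both scales, and both stretches are rich in G and C. They are from RefSeq on GRCm38.p6 (mm10), written 5′ to 3′ on the strand of the gene, and end just before the earlier of the RefSeq and GENCODE start sites, so that neither holds transcribed bases of the gene.
Wnt7a, chr6:91411364-91411603, minus strand: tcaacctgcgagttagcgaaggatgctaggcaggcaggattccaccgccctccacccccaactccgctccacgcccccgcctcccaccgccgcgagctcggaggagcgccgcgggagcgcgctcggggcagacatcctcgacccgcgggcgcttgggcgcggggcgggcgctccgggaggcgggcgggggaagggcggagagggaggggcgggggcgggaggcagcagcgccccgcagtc
Wnt9a, chr11:59306680-59306927, plus strand: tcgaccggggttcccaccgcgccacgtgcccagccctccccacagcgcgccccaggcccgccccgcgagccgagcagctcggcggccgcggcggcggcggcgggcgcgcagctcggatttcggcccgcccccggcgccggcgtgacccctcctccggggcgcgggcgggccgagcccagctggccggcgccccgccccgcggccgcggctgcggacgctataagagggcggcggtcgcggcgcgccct
Over the full 250 bases before the RefSeq start site, G and C made up 77.6% for Wnt7a and 84.4% for Wnt9a, beside a median of 69.6% over the 35 members with a sequence and 52% over 27025 promoters. Neither held the SOX core motifs AACAAT or ACAAAG nor the TCF/LEF motif CTTTGAT on either strand. On the other strand CTTTGAT reads ATCAAAG, which shares the letters CAAAG with ACAAAG. The 3 motifs were found in 9.65%, 16.5% and 3.23% of all promoters of that length and in 3, 6 and 1 of the 35 member promoters.

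Wnt5a, which mostly signals without beta-catenin, was listed at 633, 591 and 462 normalized counts in control and at 35.7, 95.9 and 82.0 in KO, a log2 fold change of −3.07 (adjusted p = 1.9e-05, limma). Wnt4 was listed at 162, 205 and 123 in control and at 28.8, 39.5 and 22.8 in KO (log2 fold change −2.39, adjusted p = 8.4e-05, limma). Wnt6 was listed at 168, 143 and 132 in control and at 15.9, 29.2 and 22.8 in KO (log2 fold change −2.69, adjusted p = 3.6e-05, limma). The KO libraries of all 3 ligands lay well below the controls. Relative to the astrocyte markers the log2 fold changes were 0.79 for Wnt5a, 1.43 for Wnt4 and 1.12 for Wnt6. All 3 were called higher in KO there, but stood below the 3.62 of the median gene on that scale.

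Wnt2b was the best-detected ligand that did not pass. It was listed at 83.3, 46.8 and 94.6 normalized counts in control and at 92.3, 56.1 and 86.6 in KO, and the groups overlapped fully. Its log2 fold change was 0.09 (SE 0.34, adjusted p = 0.83, limma) on the deposited scale and 0.90 after quantile normalization, where it was called higher. On the astrocyte-marker scale it was 3.9, beside 3.62 for the median gene.

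The other ligands were near the limit of detection. Wnt10a had 51 reads in the controls together and 15 in KO, and Wnt9b had 31 and 1. Both were called lower, with an adjusted p of 0.018 for Wnt10a and 0.0062 for Wnt9b (limma). Wnt8b, with 2 reads in control and 25 in KO, was the ligand called higher (adjusted p = 0.01, limma), its KO reads being 7, 14 and 4. Wnt5b (11 and 9 reads), Wnt10b (6 and 1), Wnt11 (9 and 2) and Wnt16 (10 and 4) did not pass. Wnt2 had 3 reads, all in KO replicate 2, Wnt3a had 1, in control replicate 2, and both stayed below the filter. No read was counted for Wnt1 and Wnt8a in any library. A count of 0 allows up to 3 reads. These are worth 1.18 normalized counts in KO replicate 2, the deepest library, and 4.73 in control replicate 3, the shallowest.

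Some ligands share a chromosomal neighbourhood as old gene pairs, a feature that the choice of members did not use. On chromosome 1 of GRCm38 (GENCODE), Wnt6 spans 74771892 to 74785322 and Wnt10a spans 74791516 to 74804179. Both were lower in KO on the deposited scale. On chromosome 11, Wnt9b (103727364 to 103749821) and Wnt3 (103774150 to 103817957) were both lower on that scale. In all, 9 of the 15 tested ligands were lower there, beside 28.8% of all genes tested. Relative to the astrocyte markers Wnt6 was higher (1.12, beside 3.62 for the median gene), and Wnt10a (0.37), Wnt3 (−0.94) and Wnt9b (−0.78) did not pass. Elsewhere on chromosome 11, Wnt9a (59306928 to 59333552) was lower while its neighbour Wnt3a (59248033 to 59290752) was all but undetected. On chromosome 15, Wnt1 (98789857 to 98793837) was not detected and Wnt10b (98770712 to 98778150) had 7 reads in all.

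All 10 Frizzled receptors were tested. On the deposited scale 7 (70%) were lower in KO, beside 28.8% of all genes tested, and 1 (10%) was higher, beside 22.2%. Their median log2 fold change was −2.03. On the astrocyte-marker scale 1 was lower, beside 0.999% of all genes, and 6 were higher, beside 83.5%. Fzd9, a Frizzled receptor encoded on mouse chromosome 5 (135248938 to 135251230, minus strand, GRCm38), showed the largest change of any member. It was listed at 528, 401 and 364 normalized counts in control and at 0, 0.8 and 1.5 in KO, which are 361, 583 and 231 reads against 0, 2 and 1. The receptor was thus well detected in each control and almost lost in each KO library. The ratio of control to KO reads, corrected for depth, was 593 with a counting interval of 203 to 2881 (95%, exact, counting error only). The log2 fold change was −8.01 (SE 0.44, adjusted p = 1.5e-07, limma), a value that moved between −6.23 and −9.24 with the pseudocount and the tool. Set against the astrocyte markers it was −5.24 (adjusted p = 8.2e-06, limma), so that Fzd9 was lower on both scales.

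Fzd1, Fzd2 and Fzd7 form a subfamily of closely related receptors, and on the deposited scale they moved in both directions. Fzd1 was listed at 783, 829 and 1023 normalized counts in control and at 318, 296 and 313 in KO, a log2 fold change of −1.50 (SE 0.14, adjusted p = 5.6e-06, limma). Fzd2 was listed at 476, 535 and 351 in control and at 25.8, 29.2 and 24.3 in KO, a log2 fold change of −4.03 (SE 0.24, adjusted p = 2.6e-07, limma). Fzd7, on chromosome 1 (59482424 to 59486955, plus strand), was listed at 909, 1011 and 857 in control and at 1436, 1521 and 1622 in KO, a log2 fold change of 0.72 (SE 0.11, adjusted p = 0.00017, limma). For each receptor the groups were separate, with KO below control for Fzd1 and Fzd2 and above it for Fzd7. After scaling to equal totals the change of Fzd7 was 0.48, or 0.40 with the ribosomal precursor Rn45s left out, under the 1.5-fold limit. Relative to the astrocyte markers, Fzd1 was higher by 2.38 and Fzd7 by 4.60, beside 3.62 for the median gene, and Fzd2 did not pass (−0.20, adjusted p = 0.47, limma).

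The sequences before the start sites of Fzd9, Fzd1 and Fzd7 are shown because they belong to the receptor with the largest change and to relatives that moved in opposite directions on the deposited scale. Source, build and direction are as for the ligands, and capitals mark the SOX core motif ACAAAG, read on either strand.
Fzd9, chr5:135251231-135251297, minus strand: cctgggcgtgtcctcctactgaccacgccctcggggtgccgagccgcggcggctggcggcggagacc
Fzd1, chr5:4758217-4758466, minus strand: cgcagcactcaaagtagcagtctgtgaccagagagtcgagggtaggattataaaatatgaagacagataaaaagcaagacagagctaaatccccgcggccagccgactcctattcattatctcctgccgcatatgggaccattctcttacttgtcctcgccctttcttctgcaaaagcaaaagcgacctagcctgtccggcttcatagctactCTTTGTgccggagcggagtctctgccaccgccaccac
Fzd7, chr1:59481897-59482146, plus strand: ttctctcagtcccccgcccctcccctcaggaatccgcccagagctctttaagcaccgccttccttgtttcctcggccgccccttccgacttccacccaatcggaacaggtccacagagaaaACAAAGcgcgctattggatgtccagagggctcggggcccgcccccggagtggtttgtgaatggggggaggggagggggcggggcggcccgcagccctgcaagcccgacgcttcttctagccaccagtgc
Fzd1 and Fzd7 each held ACAAAG once within the 250 bases before the RefSeq start site, with its first base 37 bases before the start in Fzd1 (on the opposite strand) and 129 bases before it in Fzd7. Fzd9 held none of the 3 motifs in its 250 bases. In the same stretch before the RefSeq start site, ACAAAG was also found for Dkk1, Dkk2, Tcf7l1 and Wnt8b. AACAAT was found for Dkkl1, Fzd10 and Tcf7l2, and CTTTGAT for Wnt11. For Dkk1, Tcf7l1, Dkkl1 and Fzd10 the match lies within the gene as annotated by GENCODE, which starts further upstream. A match is a description of these letters, and factor binding was not measured.

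Fzd3, a receptor known for axon guidance, was the Frizzled gene with the most reads. It was listed at 3352, 3549 and 3521 normalized counts in control and at 536, 790 and 820 in KO, a log2 fold change of −2.30 (SE 0.15, adjusted p = 4.9e-07, limma). Fzd6, which acts in planar cell polarity, was listed at 941, 798 and 623 in control and at 39.7, 92.8 and 108 in KO (log2 fold change −3.38, adjusted p = 9.8e-06, limma). Fzd4, the receptor of Norrin, was listed at 503, 606 and 498 in control and at 121, 210 and 152 in KO (log2 fold change −1.76, adjusted p = 3.9e-05, limma). All 3 had separate groups, with KO lower. Measured against the astrocyte markers Fzd3 (1.58) and Fzd4 (2.11) were higher, beside 3.62 for the median gene, and Fzd6 (0.48) did not pass.

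Fzd5 was listed at 922, 987 and 957 normalized counts in control and at 712, 777 and 668 in KO. The groups were separate, but the log2 fold change of −0.41 (SE 0.11, adjusted p = 0.0075, limma) was under the 1.5-fold limit, which it passed when libraries were scaled to equal totals (−0.65, or −0.74 without Rn45s). Its relative Fzd8 was listed at 246, 263 and 206 in control and at 329, 202 and 102 in KO. The KO libraries of Fzd8 spread on both sides of the controls, and the log2 fold change of −0.32 (SE 0.35) did not pass (adjusted p = 0.45, limma). Fzd10 rested on 41 reads in control and 5 in KO and was called lower (adjusted p = 0.0055, limma).

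The make-up of the receptors changed along with their sum. Per kb of merged exon and on the deposited scale, the 10 Frizzled genes together came to a control mean of 1422 ± 68.2 normalized counts (SD, n = 3). Their KO mean was 654 ± 24.2 (SD, n = 3), 2.17-fold lower. The 19 Wnt genes came to 1178 ± 102 and 81.6 ± 8.90, 14.4-fold lower. Beside these, the sum of the 10 astrocyte markers (not per kb) was 13.4-fold lower in KO. The Frizzled and Wnt sums were not scaled to the markers. Shares within a library do not depend on how libraries are scaled. Fzd7 made up 13.8%, 15.2% and 14.1% of the summed Frizzled level per kb in the controls and 50.5%, 49.9% and 54.0% in KO. It thus went from 1 of several receptors of like level to the leading receptor of each KO library. Fzd3, the leading receptor in control, went from 19.1% ± 1.26 (SD, n = 3) to 8.51% ± 1.60 (SD, n = 3), Fzd9 from 13.2% ± 2.27 to 0.05% ± 0.05 and Fzd6 from 11.4% ± 1.90 to 2.52% ± 1.07. Fzd5, whose level was lower in KO on the deposited scale, took a larger share, 9.73% ± 0.57 in control and 15.9% ± 1.14 in KO.

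Among the ligands, Wnt7a made up 47.0%, 47.8% and 50.4% of the summed Wnt level per kb in control and 24.6%, 29.3% and 32.8% in KO. Wnt2b went from 1.54% ± 0.61 (SD, n = 3) to 23.1% ± 7.0 (SD, n = 3) while its level overlapped between groups, and Wnt7b went from 18.7% ± 3.38 to 2.65% ± 1.29. By mean share Wnt7a and then Wnt7b led the ligands in control, where their shares were separate from each other and from all others. In KO Wnt7a and Wnt2b led, and the shares of Wnt2b (30.3%, 16.3% and 22.8%) overlapped those of Wnt7a, with Wnt2b the larger in KO replicate 1. The next ligands in KO by mean share, Wnt6, Wnt5a and Wnt4, overlapped each other. Shares of 1 sum are tied to each other, so that a fall of some raises the others. An exact two-sided permutation test of 3 against 3 libraries cannot give a p below 0.1, which any share with separate groups reaches. It gave 0.1 for the shares of Fzd3, Fzd5, Fzd6, Fzd7, Fzd9, Wnt2b, Wnt7a and Wnt7b (0.19 after Benjamini-Hochberg adjustment over 29 shares). The same values were found for Fzd1, Fzd2, Fzd4, Wnt4, Wnt6, Wnt8b and Wnt9a.

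**Figure D2:**
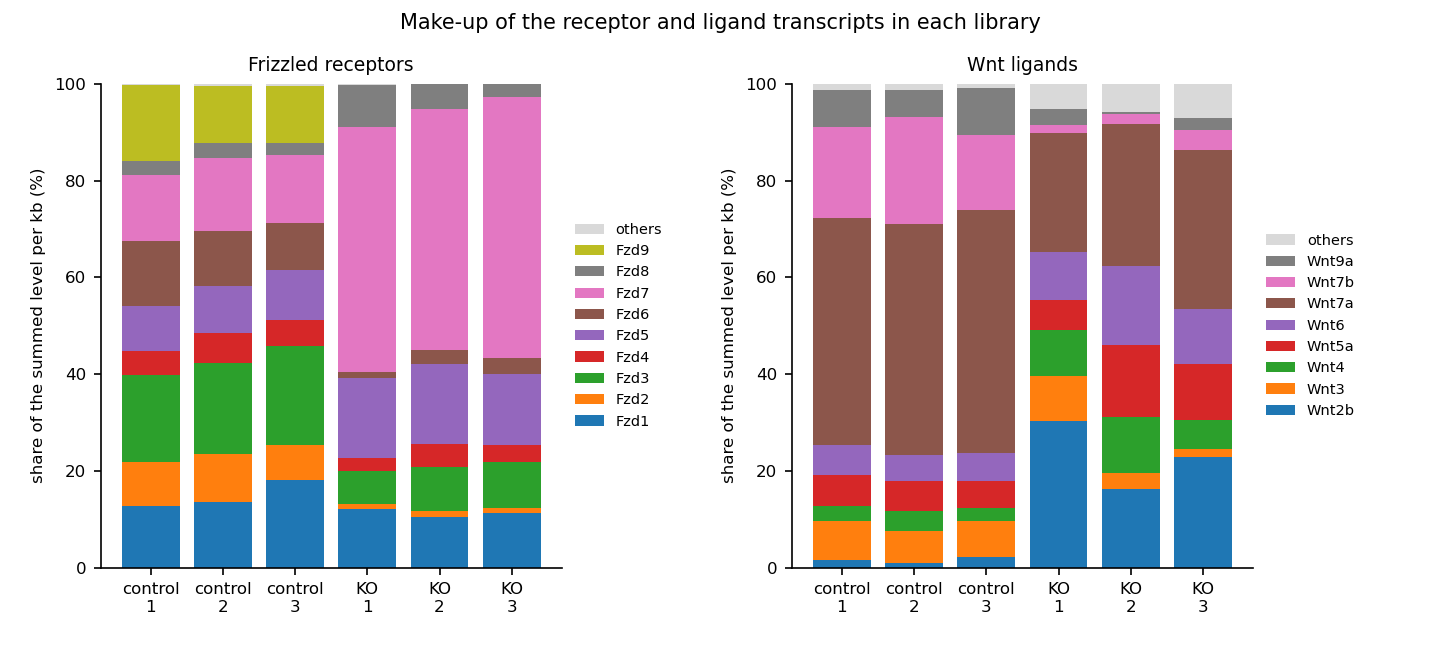
Share of the summed normalized count per kb of merged exon, in percent, for the Frizzled receptors (left) and the Wnt ligands (right), with 1 bar per library and the smallest members pooled as others. Fzd7 takes 13.8% to 15.2% of the receptor level in the controls and 49.9% to 54.0% in KO, and Wnt2b takes 0.91% to 2.12% of the ligand level in the controls and 16.3% to 30.3% in KO.

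Both co-receptors were higher in KO, beside 22.2% of all genes tested. Lrp6, which is needed with a Frizzled for beta-catenin signalling, was listed at 4108, 4106 and 4139 normalized counts in control and at 7023, 8592 and 8367 in KO, a log2 fold change of 0.95 (SE 0.10, adjusted p = 1.1e-05, limma). Lrp5 was listed at 1732, 1609 and 1474 in control and at 2559, 2626 and 2257 in KO, a log2 fold change of 0.63 (SE 0.10, adjusted p = 0.00036, limma). The KO libraries lay above the controls for both genes. The size was close to the limit for a call: Lrp5 changed by 0.39 with equal totals, 0.30 without Rn45s, 0.51 after quantile normalization and 0.57 without control replicate 3, and Lrp6 by 0.57 after quantile normalization, all under 1.5-fold. Relative to the astrocyte markers the changes were 4.51 for Lrp5 and 4.84 for Lrp6, beside 3.62 for the median gene.

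Of the 6 secreted inhibitors, which bind Wnt proteins outside the cell, 5 were lower in KO on the deposited scale and none was higher. Beside this, 28.8% of all genes tested were lower and 22.2% higher. On the astrocyte-marker scale none was lower and 4 were higher, beside 0.999% and 83.5% of all genes. Sfrp1 was listed at 753, 744 and 1004 normalized counts in control and at 57.6, 45.8 and 176 in KO, with KO replicate 3 the highest of its group. Its log2 fold change was −3.39 (SE 0.41, adjusted p = 4.4e-05, limma) and −3.98 without KO replicate 3. Frzb, also called Sfrp3, was the most abundant inhibitor, at 1743, 1197 and 1507 in control and 468, 1026 and 799 in KO. The lowest control and the highest KO library of Frzb lay close together, and the log2 fold change was −1.01 (SE 0.25, adjusted p = 0.0053, limma).

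Sfrp2 was listed at 81.8, 51.6 and 99.3 normalized counts in control and at 3.0, 6.7 and 4.6 in KO (log2 fold change −3.77, adjusted p = 4.1e-05, limma). Sfrp4 was listed at 92.1, 67.4 and 106 in control and at 12.9, 23.7 and 21.3 in KO (log2 fold change −2.16, adjusted p = 0.00047, limma). Sfrp5 ranged from 18.9 to 40.9 in control and from 8.9 to 13.8 in KO and was called lower (adjusted p = 0.035, limma). For these 3 genes KO lay below control throughout. On the astrocyte-marker scale Sfrp4 (1.62) and Sfrp5 (2.37) were higher, beside 3.62 for the median gene, and Sfrp2 (−0.16) did not pass. Wif1 had 5 reads in control and 20 in KO and did not pass on the deposited scale (adjusted p = 0.14, limma).

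The Dickkopf genes encode secreted proteins, some of which block Lrp5 and Lrp6, and they moved in both directions. Dkk3, a divergent member of the family, was listed at 2315, 3454 and 3077 normalized counts in control and at 173, 548 and 220 in KO. With 878 normalized counts per kb in control it had the highest level per kb of the 52 members. Its log2 fold change was −3.40 (SE 0.35, adjusted p = 1.3e-05, limma), and 0.48 relative to the astrocyte markers, which did not pass. Dkk2 was listed at 0, 3.4 and 1.6 in control and at 6.0, 32.8 and 103 in KO, or 6 reads in all controls against 6, 83 and 68 reads. The groups were separate, but the KO libraries of Dkk2 differed widely from each other. Its log2 fold change of 3.69 (SE 0.96, adjusted p = 0.0067, limma) went to 4.72 without KO replicate 1, 2.77 without KO replicate 3 and 3.10 without control replicate 1. On the astrocyte-marker scale the change of Dkk2 was 6.26. Dkkl1 had 9 reads in control and 15 in KO and did not pass (adjusted p = 0.96, limma), Dkk4 had 5 reads, all in KO, and Dkk1 had no read.

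The R-spondins strengthen Wnt signals through Lgr receptors. Rspo1 was listed at 68.7, 59.9 and 132 normalized counts in control and at 563, 283 and 194 in KO. The lowest KO library lay above the highest control, and the log2 fold change was 1.93 (SE 0.40, adjusted p = 0.0018, limma), or 5.76 relative to the astrocyte markers. Rspo3 was listed at 96.4, 114 and 153 in control and at 67.5, 47.4 and 24.3 in KO. Its groups were separate in the other direction, with a log2 fold change of −1.45 (SE 0.38, adjusted p = 0.0075, limma). The call was lost without control replicate 3 (−1.27, adjusted p = 0.053, limma) and after quantile normalization (−0.66). On the astrocyte-marker scale the change of Rspo3 was 2.37, beside 3.62 for the median gene. Rspo2, with 4 reads in control and 17 in KO, did not pass (adjusted p = 0.53, limma), and Rspo4 had 3 reads, all in control.

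Axin1 and Axin2, scaffold proteins of the complex that degrades beta-catenin, moved in opposite directions on the deposited scale. Axin2, which is itself a common target of beta-catenin, was listed at 237, 185 and 200 normalized counts in control and at 49.6, 64.7 and 69.9 in KO, a log2 fold change of −1.75 (SE 0.24, adjusted p = 0.0001, limma). Axin1 was listed at 338, 301 and 295 in control and at 502, 537 and 553 in KO, a log2 fold change of 0.77 (SE 0.13, adjusted p = 0.00055, limma). Neither gene had overlapping groups. Axin1 changed by 0.53 with equal totals and 0.44 without Rn45s, under 1.5-fold. On the astrocyte-marker scale both were higher, Axin1 by 4.64 and Axin2 by 2.10, beside 3.62 for the median gene.

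All 4 TCF/LEF factors, which carry the beta-catenin signal to DNA, were lower in KO on the deposited scale, beside 28.8% of all genes tested. Their median log2 fold change was −1.60. On the astrocyte-marker scale 3 were higher, beside 83.5% of all genes, and Tcf7l1 did not pass (0.079). Tcf7l1, known mainly as a repressor, was listed at 373, 323 and 257 normalized counts in control and at 18.9, 30.4 and 19.7 in KO, a log2 fold change of −3.75 (SE 0.29, adjusted p = 1.4e-06, limma). Tcf7l2 was the most abundant factor, at 3401, 2675 and 2722 in control and 2095, 2127 and 1423 in KO. The change of Tcf7l2 was the smallest of the 4, at −0.65 (SE 0.16, adjusted p = 0.005, limma), and it fell under 1.5-fold without control replicate 1 (−0.54) or KO replicate 3 (−0.47). Lef1 was listed at 164, 144 and 186 in control and at 38.7, 79.7 and 88.1 in KO (log2 fold change −1.32, adjusted p = 0.0049, limma), and its call was lost after quantile normalization (−0.56). Tcf7 was listed at 164, 97 and 99.3 in control and at 18.9, 35.9 and 44.1 in KO (log2 fold change −1.87, adjusted p = 0.0016, limma).

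**Figure D3:**
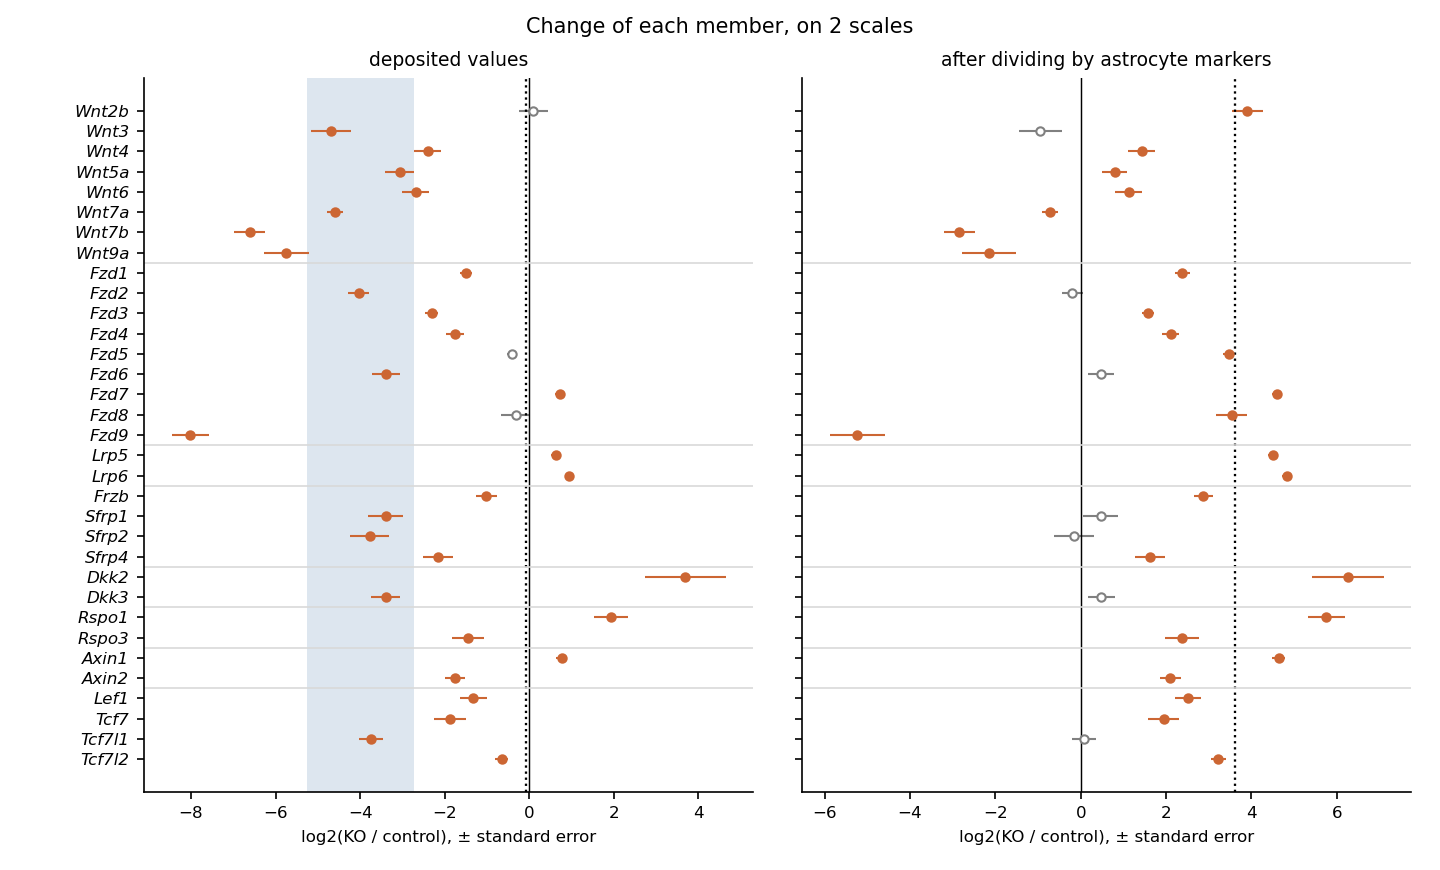
Log2 fold change of KO over control with its standard error for the 33 members with a mean of at least 20, on the deposited scale (left) and relative to the astrocyte markers (right). Filled points passed the limits for a call, open points did not, the dotted line is the median of all genes tested (−0.07 and 3.62), and the shaded band is the range of the 10 astrocyte markers (−5.25 to −2.72). Fzd9, Wnt7b and Wnt9a lie below the band on the left, and Fzd9, Wnt7b, Wnt9a and Wnt7a are the filled points below 0 on the right.

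The other genes of the pathway, taken from 8 fixed lists, numbered 67, of which 66 were tested. Of these, 37 (56.1%) were lower in KO, beside 28.8% of all genes tested, and 9 (13.6%) were higher, beside 22.2% (median log2 fold change −1.11). Relative to the astrocyte markers 2 (Tspan12 and Draxin) were lower and 55 were higher, a share close to the 83.5% of all genes that were higher on that scale. In Wnt secretion and acylation, Wls, the carrier that brings Wnt proteins to the cell surface, was listed at 1448, 1469 and 1283 normalized counts in control and at 3296, 3282 and 3491 in KO. The KO level of Wls was thus above every control, and its log2 fold change was 1.26 (adjusted p = 1.1e-06, limma). On the deposited scale Porcn, the enzyme that attaches the lipid to Wnt proteins, changed in the other direction, by −1.95. So did Notum, the enzyme that removes it, by −2.55. Relative to the astrocyte markers Wls (5.14) and Porcn (1.92) were both higher, beside 3.62 for the median gene, and Notum (0.27) did not pass.

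All 4 alternative Wnt receptors were lower, among them Ryk by −1.22, Ror1 by −1.30 and Ptk7 by −4.0 on the log2 scale. Of the R-spondin receptors and the ligases that remove Frizzleds, 4 of 5 were lower, with Znrf3 at −1.24, Lgr4 at −2.10 and Lgr5 at −2.97. Among 6 other extracellular modulators tested, 4 were lower, including Apcdd1 (−0.94), Kremen1 (−0.65), Tpbg (−3.05) and Draxin (−4.54). All 4 partners of Wnt7 and Norrin reception were lower. Tspan12, which works with Fzd4 and Norrin, was listed at 2961, 3742 and 2872 normalized counts in control and at 106, 110 and 155 in KO, a log2 fold change of −4.69 (adjusted p = 1.5e-08, limma). Ndp, which encodes Norrin, changed by −3.56 and Adgra2, a co-receptor for Wnt7a and Wnt7b, by −1.18. All of these are deposited-scale changes, where 28.8% of all genes tested were lower and 22.2% higher. On the astrocyte-marker scale the same lists held 2, 5, 3 and 2 genes called higher, beside 83.5% of all genes.

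The intracellular core of the pathway was the list with the most genes that did not pass, 13 of 21, with 6 lower and 2 higher and a median of −0.21, and relative to the astrocyte markers 20 were higher. The share lower was close to the 28.8% of all genes tested, beside 22.2% of all genes higher and 83.5% higher relative to the astrocyte markers. Ctnnb1, which encodes beta-catenin, went from a control mean of 12567 ± 901 normalized counts (SD, n = 3) to a KO mean of 12826 ± 1076 (SD, n = 3). Its log2 fold change was 0.03 (SE 0.10, adjusted p = 0.81, limma), and its groups overlapped. On the astrocyte-marker scale the change of Ctnnb1 was 3.91, beside 3.62 for the median gene. Apc changed by −0.62, Tnks2 by 0.60, Apc2 by −3.63 and Csnk1e by 0.90, all past the limits. Of 10 nuclear co-factors, 6 were lower and 3 were higher, with Tle4 at 0.74, Bcl9 at 0.75, Tle3 at 0.62 and Pygo1 at −3.02. Of 13 planar cell polarity genes, 7 were lower and 3 were higher, and the related formins Daam1 (0.73) and Daam2 (−3.74) moved in opposite directions on the deposited scale. Celsr2 changed by −4.10 and Prickle3 by 1.36. Against the astrocyte markers 10 nuclear co-factors and 11 polarity genes were higher.

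**Figure D4:**
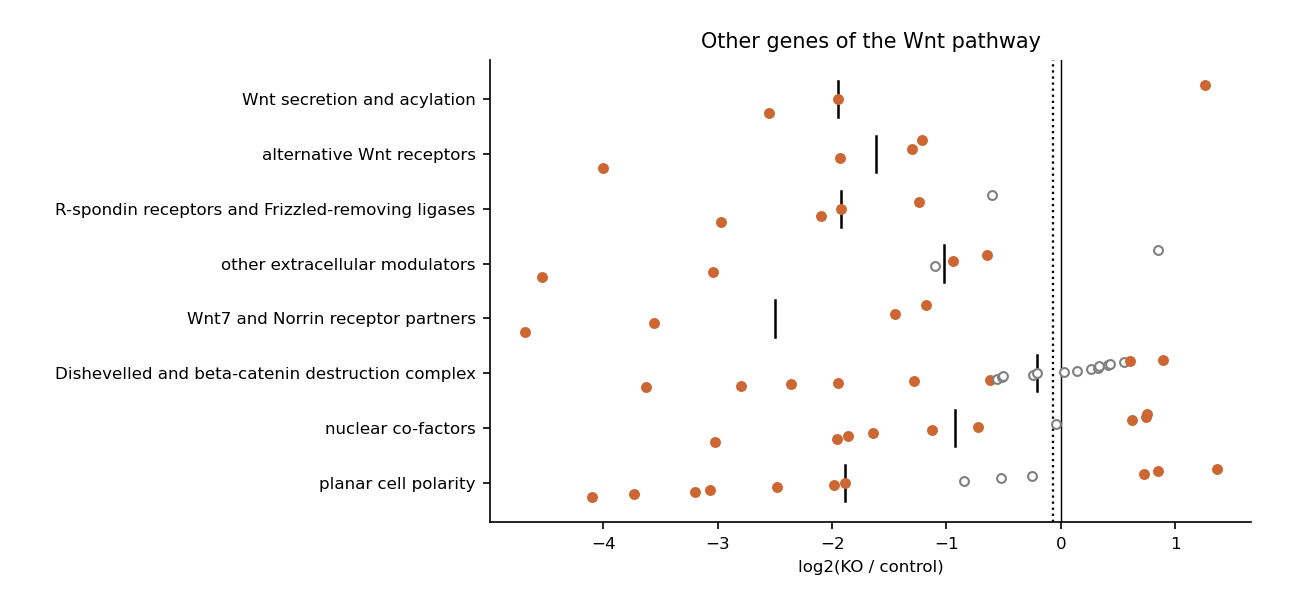
Log2 fold change of KO over control on the deposited scale for the 66 tested pathway genes that are not members, by list. Each point is 1 gene, filled where it passed the limits, the bar is the median of the list and the dotted line the median of all genes tested (−0.07). The list medians lie between −2.50 (Wnt7 and Norrin receptor partners) and −0.21 (Dishevelled and beta-catenin destruction complex). On the astrocyte-marker scale 55 of the 66 genes were higher, beside 83.5% of all genes.

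Of 14 common targets of beta-catenin, a list that shares Axin2, Lef1 and Tcf7 with the members and other genes with the pathway lists, 10 were lower in KO, beside 28.8% of all genes tested, and 1 was higher, beside 22.2% (median log2 fold change −1.53). Set against the astrocyte markers none was lower and 12 were higher, a share close to the 83.5% of all genes. Tnfrsf19 had the highest control mean, with 4225 ± 298 normalized counts over the 3 controls and 727 ± 197 over the 3 KO libraries (SD), a log2 fold change of −2.58 (adjusted p = 8.3e-07, limma). Wisp1 showed the largest fall, −3.62. Myc was higher by 0.98 and Ccnd1 did not pass (−0.11, adjusted p = 0.59, limma). Many of these genes respond to other signals as well, and pathway activity was not measured.

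Marker lists of the cell types that the sorted population could hold moved with these changes, and their part in them was not tested. In the astrocyte list, Slc1a2 averaged 258895 ± 18157 normalized counts over the 3 controls and 13677 ± 4943 over the 3 KO libraries, and in the microglia list Csf1r averaged 36390 ± 4827 and 145495 ± 22233 (SD). Of 11 neuron markers, 10 were lower, with sums of 17794 to 24130 normalized counts in control and 2677 to 4860 in KO. All 6 neuroblast markers were lower (4748 to 6738 in control, 266 to 488 in KO), as were all 5 oligodendrocyte precursor markers (6447 to 7141 and 470 to 726) and all 6 oligodendrocyte markers (35718 to 60060 and 15352 to 24644). Of 6 olfactory ensheathing cell markers 4 were lower (3040 to 3491 and 901 to 1888), of 6 mural cell markers 3 (1759 to 2063 and 378 to 737), with Kcnj8 at 0 in a KO library, and of 5 ependymal markers 2 (793 to 1128 and 117 to 166). The endothelial list had 3 of 7 lower and 2 higher (1959 to 3184 and 1815 to 2339), the border macrophage list 4 of 6 lower and 1 higher (14919 to 22510 and 21021 to 23128), and the meningeal fibroblast list 1 of 6 higher (1382 to 1961 and 1502 to 1603). Apart from Kcnj8 no marker was at 0 in any library.

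**Figure D5:**
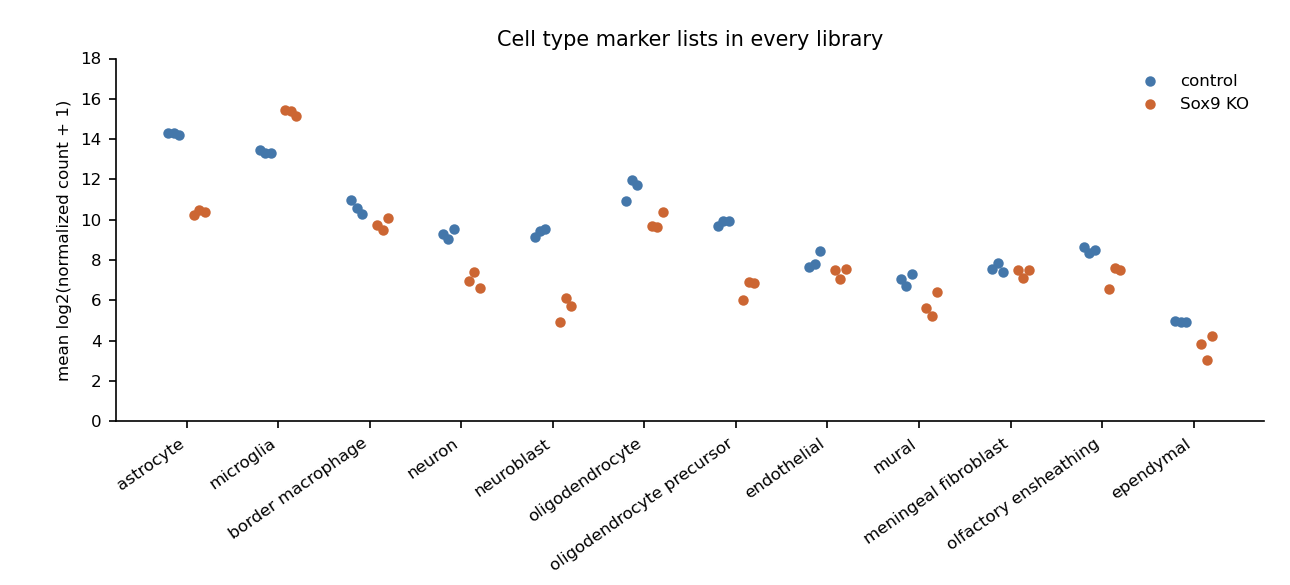
Mean log2(normalized count + 1) over the genes of each marker list, with 1 point per library. The microglia points are higher in KO than in control, the meningeal fibroblast points overlap, and the points of the other 10 lists are lower in KO.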

How the data were processed

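RNA from TurboRFP-positive olfactory bulb cells of 3 control and 3 Sox9 KO mice, 1 library per mouse, was sequenced by the authors. Per the paper's methods and the submitters' processing notes, reads were mapped to mm10 with STAR 2.5.0a, counted with the GenomicAlignments and GenomicFeatures packages and then normalized with DESeq2 1.20.0, samtools being named for depth. Annotation and strandedness: not given in the sources used here. What the authors deposited are signal values named RPM. In each library 100% of them were whole multiples of 1 step within 0.01 read, so that each value is a read count over the size factor of its library, and they are called normalized counts. All deposited columns were used.

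The genes that averaged at least 1 normalized count were compared with limma 3.58.1 (R 4.3.3), after log2(normalized count + 1), using a variance trend, no block, and two-sided Benjamini-Hochberg adjusted p-values over 18413 genes. This log scale understates changes of low genes. A call needed an adjusted p of 0.05 and 1.5-fold. Recovered reads were also tested with edgeR 4.0.16 and DESeq2 1.42.0, and the methods were checked on simulated data. For the alternative scaling, each library was divided by the geometric mean of its 10 astrocyte markers, a choice made after seeing the data. Levels per kb used merged exon lengths of GENCODE vM21 (GRCm38), which need not be the isoforms expressed. Promoters came from RefSeq (GRCm38.p6) and matched 35 of 52 members by symbol. The limma p-values set each difference between groups against the spread of libraries within the groups, moderated over genes, and cover only these 6 libraries.

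Members and lists were chosen with earlier results of these data known. Every member with a read is named. Values in each library are given for called members with a mean of at least 20 and for others with a mean of at least 100. In other lists at most the 3 genes of highest mean and the largest changes are named. The values of Wnt2b in each library go beyond this rule, a choice made once they had been seen.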

Additional observations from a re-analysis of the deposited data

How the results depend on the processing

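The counts of lower members, lower pathway genes and lower targets (28, 37 and 10) and of higher members and higher pathway genes (7 and 9) stayed within 1.5 times of these values under other pseudocounts, filters, variance models, tools (edgeR 26 lower and 7 higher members, DESeq2 27 and 6) and with each library left out (25 to 28 lower and 6 to 7 higher members, 34 to 37 lower and 7 to 10 higher pathway genes, 9 to 10 lower targets). Higher members numbered 4 with libraries scaled to equal totals, 4 with Rn45s also left out and 3 at 2-fold, and higher pathway genes 4, 2 and 2. These scalings moved the median of all genes by −0.23 and −0.31, and quantile normalization by 0.27, with 6191 genes lower and 2936 higher, 6597 and 2630, and 4100 and 5380, beside 5299 and 4090. Relative to the astrocyte markers the median moved by 3.69, and 4 members, 2 pathway genes and 0 targets were lower and 27 members and 55 pathway genes higher. Of all genes tested, 184 were lower and 15382 higher on that scale. The log2 fold change then turned to 1.43 for Wnt4, 0.79 for Wnt5a, 1.12 for Wnt6, 2.38 for Fzd1, 1.58 for Fzd3, 2.11 for Fzd4, 3.47 for Fzd5, 0.48 for Fzd6, 3.54 for Fzd8, 2.87 for Frzb, 0.47 for Sfrp1, 1.62 for Sfrp4, 0.48 for Dkk3, 2.37 for Rspo3, 2.10 for Axin2, 2.52 for Lef1, 1.94 for Tcf7, 0.079 for Tcf7l1 and 3.23 for Tcf7l2. By construction this scaling sets the astrocyte markers, which were lower in KO, near 0. The median of all genes then stood at 3.62. Members that did not pass also turned sign: Wnt2b to −0.15 with equal totals, −0.23 without Rn45s, −0.21 without control replicate 2 and −0.041 without KO replicate 1 (range with a library left out −0.21 to 0.31), and Fzd8 to 0.21 after quantile normalization and 0.12 without KO replicate 3 (range −0.72 to 0.12), for which the cause was not tested. Replicate numbers did not pair the libraries (correlations of same-numbered deviations −0.05, −0.01 and −0.01), and a fit with the replicate number as a block called 27 lower and 7 higher members, 37 lower and 9 higher pathway genes and 10 lower targets. Where a group holds only a few reads, depth limits the size of a change.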
